A study of Mus musculus with 16 samples.

Results

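Crhr1 and Map2k6 are 2 of the 21938 protein-coding genes of mouse GENCODE M21, and both were chosen because oocytes grown in cultured follicles had more DNA methylation over them than any other group of these samples. That contrast picked the genes, so its values are given here as a description and without a test. Crhr1 (ENSMUSG00000018634) occupies chr11:104132855-104175523 of GRCm38 on the plus strand, and Map2k6 (ENSMUSG00000020623) occupies chr11:110399122-110525522 on the same strand, 6.22 Mb further along the chromosome. Each gene was read with 100-kb flanks in 5-kb bins, which gave 117 bins over both windows.

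Crhr1 encodes the main receptor for corticotropin-releasing hormone (CRH), a G protein-coupled receptor known for starting the pituitary stress response. Map2k6 encodes a dual-specificity kinase that phosphorylates and activates the p38 MAP kinases in stress and cytokine signalling. Mouse oocytes acquire their CpG methylation after birth, while they grow, and most of it is laid down over transcribed gene bodies. Stretches between transcribed genes and CpG-rich promoters of active genes usually stay unmethylated, which gives the oocyte genome a pattern of high and low domains.

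Methylation was measured by post-bisulphite adapter tagging (PBAT) in 16 pools of metaphase II oocytes from F1 (C57BL/6J x CBA/Ca) females. The 4 IFC pools came from preantral follicles of 13-day-old females kept in culture for 10 days. Their medium held serum, insulin and recombinant FSH, and recombinant hCG with EGF served as the ovulatory stimulus. The 5 SO pools came from 23-day-old females superovulated with 2.5 IU of eCG and then hCG, the 4 SOA pools from females aged 10 weeks given 5 IU of each hormone, and the 3 IV pools from females of that age that ovulated naturally, without injected hormones and after synchronisation by male pheromones, so that age and dose changed together between SO and SOA. Libraries held 5218053 to 23065411 calls. All 4 IFC libraries, 2 of 5 SO and 3 of 4 SOA libraries held under 10000000 calls, and no IV library did, so that depth was partly tied to group. Positions with a single call made up 65.5% to 91.5% of a library, and a level below is therefore the mean of the percentages of all covered positions of a region. As a check of cell type, the windows at the annotated starts of the maternally imprinted genes Peg3, Peg10 and Snrpn were at median levels of 96.4%, 95.9% and 100% over the pools with calls, and the region upstream of H19, which oocytes leave unmethylated, was between 0% and 6.06%. The same windows at the most upstream annotated starts of Mest and Plagl1 had medians of 23.8% and 0%, so that these markers were not met there. The study suspected a slight contribution of somatic DNA in IV1 and kept it, and results that change without it are named.

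The sequences below show what was methylated, with the CpGs in capitals. The promoter windows run from 250 bases before to 50 bases after a RefSeq transcription start of GRCm38.p6 and are shown because the genes differed there. The Crhr1 promoter at chr11:104132531-104132830 held 31 CpGs, more than 89.4% of 32851 mouse promoter windows, whose median was 7. The Map2k6 promoter at chr11:110398852-110399151 held 14 CpGs, more than 63.7% of the windows. The sequence GGGCGG occurred in the Crhr1 window and not in this Map2k6 window, on either strand, and in 35.7% of all windows.
Crhr1 promoter: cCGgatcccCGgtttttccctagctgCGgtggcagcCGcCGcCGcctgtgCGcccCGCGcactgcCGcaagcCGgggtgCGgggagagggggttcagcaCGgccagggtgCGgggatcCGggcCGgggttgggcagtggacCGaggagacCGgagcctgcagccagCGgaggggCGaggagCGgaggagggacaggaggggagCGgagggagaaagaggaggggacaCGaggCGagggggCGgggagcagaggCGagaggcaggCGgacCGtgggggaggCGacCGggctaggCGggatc
Map2k6 promoter: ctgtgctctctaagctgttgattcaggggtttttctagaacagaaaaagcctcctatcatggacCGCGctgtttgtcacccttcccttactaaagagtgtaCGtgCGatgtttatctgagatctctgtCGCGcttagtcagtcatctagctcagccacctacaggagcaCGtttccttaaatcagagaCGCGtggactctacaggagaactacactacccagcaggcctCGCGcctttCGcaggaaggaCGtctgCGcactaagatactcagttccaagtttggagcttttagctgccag

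The remaining windows of 300 bases were the best covered ones outside annotated exons, picked by the number of calls in the least covered group and not by their methylation. They are the CpG-dense part of Crhr1 intron 1 (chr11:104133601-104133900, 26 CpGs), Crhr1 intron 2 (chr11:104157751-104158050, 11 CpGs), the part of Map2k6 intron 1 before the gained runs (chr11:110411701-110412000, 12 CpGs) and Map2k6 intron 10 within the gain (chr11:110499551-110499850, 11 CpGs).
Crhr1 intron 1: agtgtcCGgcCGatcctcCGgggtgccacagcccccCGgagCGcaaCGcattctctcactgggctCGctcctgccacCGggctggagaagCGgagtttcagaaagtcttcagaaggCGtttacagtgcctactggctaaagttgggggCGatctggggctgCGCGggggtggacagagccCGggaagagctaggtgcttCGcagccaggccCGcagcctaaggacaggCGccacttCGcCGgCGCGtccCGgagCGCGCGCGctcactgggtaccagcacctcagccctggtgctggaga
Crhr1 intron 2: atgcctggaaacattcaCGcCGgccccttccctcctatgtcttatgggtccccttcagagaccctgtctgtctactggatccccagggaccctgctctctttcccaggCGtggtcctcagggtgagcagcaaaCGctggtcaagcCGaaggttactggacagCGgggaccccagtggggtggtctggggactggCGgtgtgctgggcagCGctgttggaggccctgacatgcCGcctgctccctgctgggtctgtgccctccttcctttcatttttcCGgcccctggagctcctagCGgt
Map2k6 intron 1: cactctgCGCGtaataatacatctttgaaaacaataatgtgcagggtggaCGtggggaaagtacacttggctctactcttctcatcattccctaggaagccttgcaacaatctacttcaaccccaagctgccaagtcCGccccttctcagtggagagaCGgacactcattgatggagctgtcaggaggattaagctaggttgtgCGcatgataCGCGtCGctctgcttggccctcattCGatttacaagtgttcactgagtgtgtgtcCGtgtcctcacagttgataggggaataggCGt
Map2k6 intron 10: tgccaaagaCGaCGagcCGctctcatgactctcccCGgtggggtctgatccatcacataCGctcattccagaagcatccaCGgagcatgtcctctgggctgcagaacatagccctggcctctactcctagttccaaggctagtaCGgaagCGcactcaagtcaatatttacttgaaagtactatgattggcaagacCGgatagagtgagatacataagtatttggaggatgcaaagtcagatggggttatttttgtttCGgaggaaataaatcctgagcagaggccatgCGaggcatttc

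In the Crhr1 promoter window, 20 of 34 calls were methylated in IFC, or 58.8% with a 95% Wilson interval of 42.2% to 73.6%. None of the 134 calls of the other groups was methylated there. If all calls were independent, this would allow a share of up to 2.24%. Neighbouring calls can lie on the same read, so the true limit is likely higher. These calls came from 3 IFC libraries and 7 others, and the IFC libraries differed: 13 of 16 calls were methylated in IFC1 and 6 of 6 in IFC2, but 1 of 12 in IFC4. SO was represented there by 18 calls of SO3 alone. The pools also did not cover the same CpGs of this window. From its base 254 to its end only IFC had calls, and all of them were methylated. Before that base IFC had both methylated and unmethylated calls, so the share of 58.8% rests partly on CpGs without a call in any other group. In the shown stretch of Crhr1 intron 1, 45 of 58 IFC calls were methylated (77.6%, interval 65.3% to 86.4%) against 22 of 349 calls in the other groups (6.30%, interval 4.20% to 9.36%). In Crhr1 intron 2, the counts were 23 of 31 in IFC (74.2%) and 10 of 118 in the others (8.47%). The Map2k6 promoter at the gene start was nearly free of methylation in every group, with 1 of 19 calls methylated in IFC, 1 of 45 in SO, 0 of 43 in SOA and 1 of 39 in IV. RefSeq gives Map2k6 other starts, and the window at chr11:110478265-110478564, within the gain, had 3 of 3 calls methylated in IFC, all from IFC1, against 1 of 8 in SO, 0 of 13 in SOA and 0 of 5 in IV. The window at chr11:110479090-110479389 had no methylated call, with 2 calls in IFC. The shown stretch of Map2k6 intron 1 was low in every group, at 1 of 29 calls in IFC and 6 of 169 in the others. In Map2k6 intron 10, 24 of 31 IFC calls were methylated (77.4%, interval 60.2% to 88.6%) against 60 of 150 (40%, interval 32.5% to 48.0%). The intervals take every call as independent and leave out the spread between pools. Neighbouring calls can lie on the same read, and reads without molecular identifiers are not independent molecules. The intervals are therefore likely too narrow even for counting error.

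Over the whole Crhr1 gene body, the IFC pools were at 73.0%, 82.1%, 74.6% and 70.5%. The SO pools were at 50.2%, 29.1%, 31.2%, 28.1% and 22.9%, the SOA pools at 29.5%, 30.2%, 26.3% and 27.8%, and the IV pools at 28.3%, 23.8% and 20.6%. Every IFC pool was higher than every other pool, by at least 20.3 points, and SO1 stood between IFC and the rest. Group means were 75.0% ± 5.02 in IFC (SD, n = 4), 32.3% ± 10.5 in SO (n = 5), 28.5% ± 1.73 in SOA (n = 4) and 24.2% ± 3.86 in IV (n = 3). IFC was 46.0 points above the mean of the other 12 pools, the largest such difference of the 18198 gene bodies covered in every pool, whose median was 0.697 points. These values rest on 188 to 862 calls in a pool.

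Map2k6 changed less over its whole length. The IFC pools were at 54.1%, 42.0%, 51.9% and 52.3%. The SO pools were at 33.6%, 33.7%, 29.0%, 31.5% and 34.7%, the SOA pools at 24.1%, 28.8%, 26.2% and 24.9%, and the IV pools at 31.1%, 26.6% and 21.7%. The 4 IFC pools again lay above all others, with 7.34 points between IFC2 and the highest SO pool. Group means were 50.1% ± 5.47 in IFC (SD, n = 4), 32.5% ± 2.25 in SO (n = 5), 26.0% ± 2.05 in SOA (n = 4) and 26.4% ± 4.69 in IV (n = 3), from 419 to 1829 calls in a pool. The difference of 21.3 points between IFC and the other 12 pools had rank 93 among the gene bodies. With only the positions of at least 3 calls, which left 3 of the IFC pools, it was 35.3 points, and the difference from SO was 38.7 points in place of 17.6. The IFC pools held 443 to 787 calls on 413 to 660 positions here, so few of their positions could have 3 calls. Across all genes, every IFC pool was above every other pool in 0.467% of gene bodies and the difference was at least 20 points in 0.676%, and since both genes were picked on this contrast, nothing follows from their place in it.

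**Figure D1:**
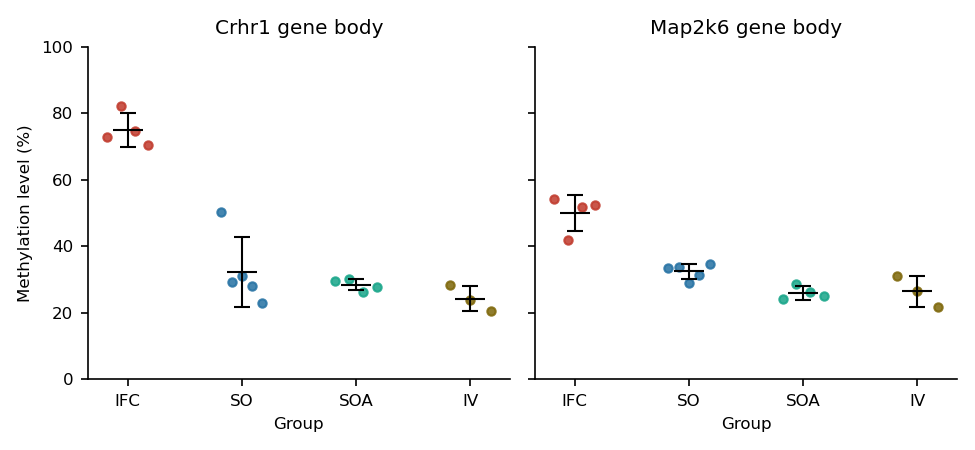
Methylation level of the Crhr1 and Map2k6 gene bodies (y axis, %) in each oocyte pool (points) of the IFC, SO, SOA and IV groups (x axis), with the mean and SD in black. The IFC pools lie at 70.5% or above for Crhr1 and at 42.0% or above for Map2k6, higher than all other pools.

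Gene-body bins were those that touch the genes, and they run up to 5 kb past them. Among the 31 gene-body bins with at least 5 positions in every pool, IFC exceeded the mean of the other 12 by at least 20 points in 23, and none of the 61 bins so measured that lie wholly in the flanks did. The gain went on past the gene ends, since the 5 kb after Crhr1 averaged 44.7% in IFC and 13.02% to 18.7% in the other groups, and the 5 kb after Map2k6 41.0% against 6.24% to 13.97%. At Crhr1 the lowest IFC pool was at 23.7% in this stretch and the highest other pool at 30.8%, and at Map2k6 they were at 25% and 37.5%, so that pools overlapped at both ends. For scale, 1.09% of all such bins of the genome met this limit. All IFC pools were above all others in 10 of the 31 bins, against 0.197% of bins in the genome. Against SO alone, 21 of 100 measured bins of both windows were at least 20 points higher in IFC, against SOA 27 of 98 and against IV 27 of 107, where the genome had 0.997%, 2.46% and 2.49%. A single flank bin, in Abca5, was among those higher than SOA and IV, and 3 Crhr1 flank bins were at least 20 points lower in IFC than in SOA and 2 than in IV, as were 3.43% and 3.25% of bins in the genome. These groups share the IFC pools, and the bins belong to the contrast that chose the genes.

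**Figure D2:**
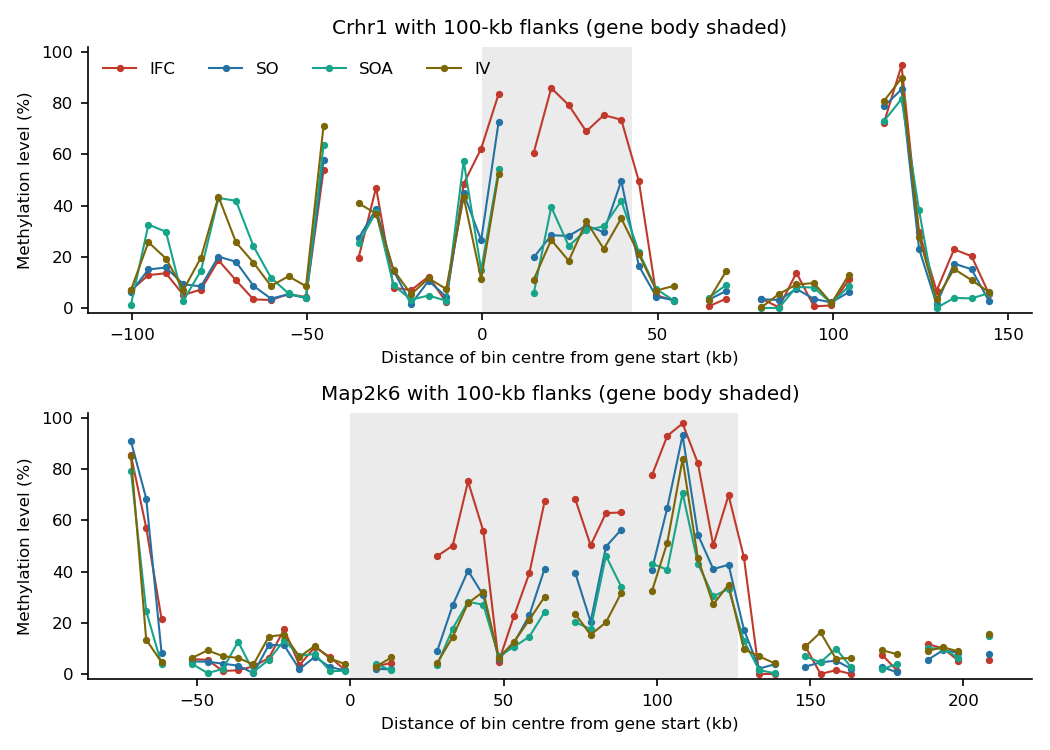
Mean methylation level of each group (y axis, %) in 5-kb bins along Crhr1 and Map2k6 with 100-kb flanks, by distance of the bin centre from the gene start (x axis, kb), for bins with at least 5 positions in every pool, so that lines break where a bin was not measured. The groups run close together in most of the flanks and IFC (red) rises above the others over Crhr1 and over 2 separate stretches of Map2k6.

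At Crhr1, 9 of the 10 bins that touch the gene were measured in every pool, and all 9 were at least 20 points higher in IFC. The gain ran from chr11:104130001 to chr11:104180000, which is 2.85 kb before the gene start to 4.48 kb past its end. The difference was largest in the bins at chr11:104155001 and chr11:104150001, with 54.9 and 54.3 points. In the second of these, IFC averaged 86.0%, SO 28.4%, SOA 39.5% and IV 26.6%. At the borders the change was abrupt, with 43.5 points in the first bin of the gain and -0.0739 in the bin before it, and 30.2 points in the last bin and -1.02 in the bin after it. The tenth bin, at chr11:104140001, had only 3 positions in its least covered pool and averaged 79.4% in IFC against 28.5% to 38.8% in the other groups. Single IFC pools were at least 20 points above the 12 others in 8, 9, 8 and 7 of these 9 bins for IFC1 to IFC4, and in 3 of 37, 2 of 36, 1 of 37 and 1 of 37 flank bins. The run covered the same 50 kb in IFC1 and IFC2, whereas in IFC3 and IFC4 it spanned 30 kb and began 17.1 and 12.1 kb after the gene start. The gene start was still higher in these pools, since in the bin at chr11:104130001 the lowest IFC pool was at 42.0% and the highest other pool at 38.3%. Their runs broke at the tenth bin together with a neighbour under the limit. This was the bin at chr11:104145001 in IFC3 and that at chr11:104135001 in IFC4, where the other groups averaged 52.5% to 72.8%. Without IFC1, IFC3 or SOA3 the start of the run in the group means moved to 12.1 kb after the gene start, and with bins of 2 kb to 35.1 kb.

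Map2k6 had 2 runs of gained bins, both well after its start. The bin that holds the start was at 1.39% in IFC, and the bins at chr11:110405001 and chr11:110410001 at 2.98% and 4.36%, with 6.45% or less in the other groups. Between them the bin at chr11:110400001 averaged 41.8% in IFC and 14.1% to 21.3% in the other groups, but it had only 2 positions in its least covered pool. A run of 4 bins from chr11:110425001 to chr11:110445000 was 39.96, 29.5, 42.1 and 26.0 points higher in IFC. The bins at chr11:110445001 and chr11:110450001 differed by -1.53 and 10.99 points, and the bin at chr11:110455001 by 19.7 points, just under the limit. The longest run followed, from chr11:110460001 to chr11:110530000, 60.9 kb into the gene to 4.48 kb past its end, with 10 of its 14 bins past 20 points. This start was not stable, since it moved to 95.9 kb when IFC1, IFC3, IFC4, SO5, SOA1, SOA2, SOA4 or any IV pool was left out, and 2 bins of the run, at chr11:110480001 and chr11:110485001, were just past the limit with 21.7 and 20.3 points. Relative to the gene end, the end of the run moved to -38.0 kb with bins shifted by 2500 bp, to -91.5 kb with bins of 2 kb, to -25.5 kb with at least 10 positions and to -80.5 kb with no gap allowed. The principal annotated transcript of Map2k6 ends before the gene end, at chr11:110513641, so that the run went further past this transcript than past the gene. The principal transcript of Crhr1 ends at its gene end. Of the other 4 bins of that run, those at chr11:110465001 and chr11:110490001 lacked coverage in a pool and were high in all groups, at 68.2% or more, and those at chr11:110505001 and chr11:110515001 differed by 14.5 and 16.3 points. The bin just after the run differed by -3.08 points. The SD of the IFC pools was 6.94 points over this run and 9.03 over the Crhr1 gain. Of the measured gene-body bins, 16 of 23 were at least 20 points above the others in IFC1, 9 of 22 in IFC2, 12 of 23 in IFC3 and 13 of 23 in IFC4. In the flanks 3, 1, 0 and 4 of 25 measured bins were that far above in IFC1 to IFC4. The longest runs of IFC1 to IFC4 spanned 75, 25, 45 and 75 kb. Relative to the gene end they ended at 4.48, -5.52, -20.5 and 4.48 kb. In the bin at chr11:110425001, the first of the run of 4 bins, IFC averaged 46.1%, but its lowest pool was at 9.52%, below the highest other pool at 14.2%.

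**Figure D3:**
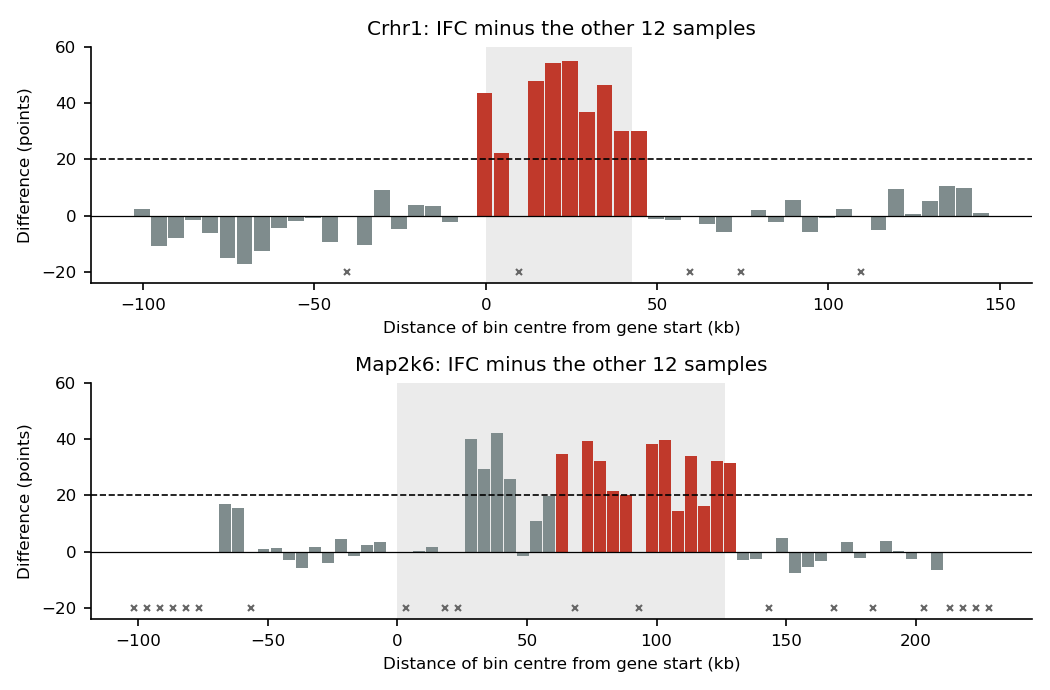
Difference in methylation level between the mean of the 4 IFC pools and the mean of the other 12 (y axis, percentage points) in 5-kb bins, by distance from the gene start (x axis, kb), with the gene body shaded, the 20-point limit dashed and crosses for bins without 5 positions in every pool. Red bars mark the longest run past the limit, which covers all of Crhr1 and starts 60.9 kb into Map2k6.

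The borders were also fitted in another way. Calls were pooled by group in 1-kb windows, and the 2 borders that best divided the differences by least squares were at chr11:104132001 and chr11:104178000 for Crhr1, 0.854 kb before the gene start and 2.48 kb after the gene end. Inside these borders the mean difference was 45.1 points and outside -2.03. For Map2k6 they were at chr11:110421001, in intron 1 and 21.9 kb after the start, and at chr11:110529000, 3.48 kb after the end, with means of 25.5 and 1.82 points. The start of the Crhr1 gain lay in a CpG-dense region at chr11:104131632-104135658, which has 203 CpGs in 4027 bp and covers exon 1. In the 1-kb window at chr11:104131001, just outside the gain, IFC had 13 of 29 calls methylated and the others 135 of 269. In the next window IFC had 65 of 108 and the others 15 of 393. Most of the methylated calls of the others came from SO, with 14 of 95, against 1 of 113 in SOA and 0 of 185 in IV. After the Crhr1 end, the IFC share fell from 83.3% to 18.2% between the windows at chr11:104177001 and chr11:104178001, on 6 and 11 calls.

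**Figure D4:**
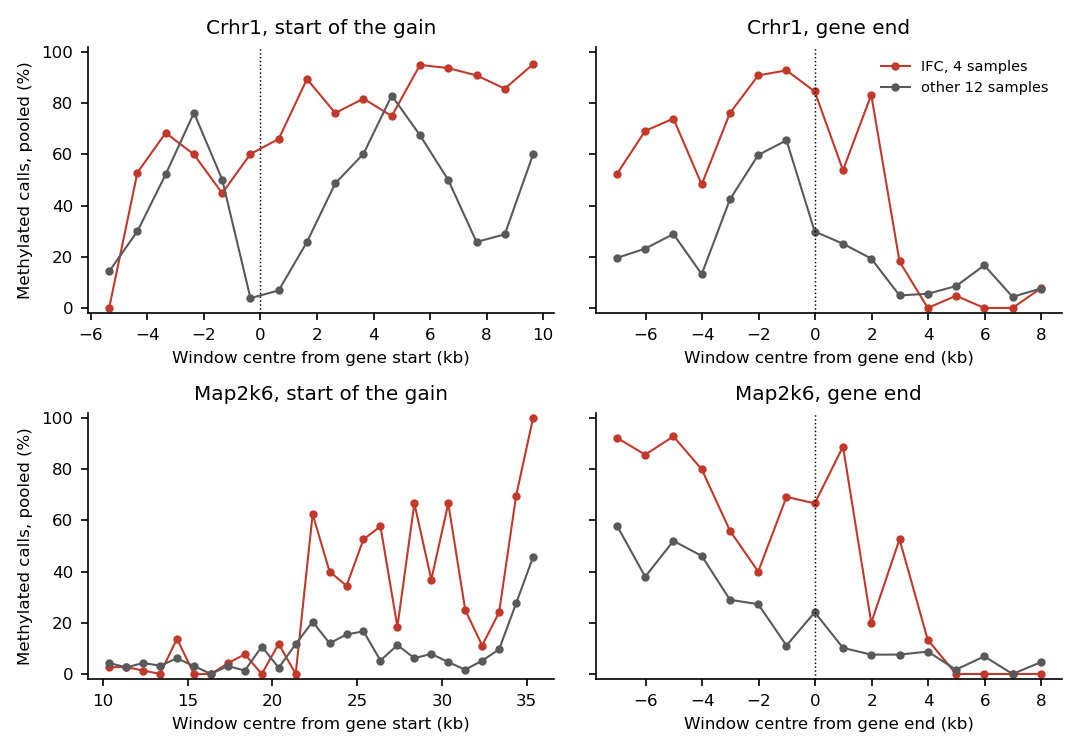
Share of methylated calls (y axis, %), pooled over the 4 IFC pools (red) and the other 12 pools (grey), in 1-kb windows by distance of the window centre from the gene start (left, x axis, kb) or gene end (right, x axis, kb, gene start and end dotted). At Crhr1 the lines separate in the window that holds the start, and at both genes the IFC line falls to that of the others within 5 kb of the end.

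Across the CpG-dense region of Crhr1, IFC1 to IFC4 were at 64.1%, 94.8%, 50.6% and 42.7%. The SO pools were at 45.0%, 1.61%, 16.8%, 24.6% and 11.6%, with 9 of 20 calls methylated in SO1. The SOA pools were between 6.12% and 10.8%, and the IV pools between 2.95% and 6.75%. The IFC pools thus spread more here than over the gene body, and the lowest of them overlapped with SO1. Other CpG-dense regions in the windows, at chr11:104230441-104235426 over the start of Mapt and at chr11:110336678-110339039 over the start of Abca5, averaged 1.39% and 0.410% in IFC, and no other pool was above 7.69%.

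Along the gene bodies, the genes had different shapes. When each was divided into 5 segments of equal length, IFC averaged 73.2%, 66.8%, 82.6%, 77.9% and 71.7% over Crhr1 from start to end. The SO means over Crhr1 were 30.9%, 30.2%, 31.5%, 30.3% and 40.7%, without a steady rise in either group. The SOA means were 20.9%, 14.5%, 31.6%, 31.5% and 37.7% and the IV means 20.4%, 18.9%, 23.4%, 30.5% and 27.8%, so that the last 3 segments were above the first 2 in both. Over Map2k6 the IFC means rose from 10.6% through 44.7%, 51.0% and 69.2% to 79.9%, and the SO means from 4.67% through 21.8%, 30.5% and 51.3% to 59.9%. SOA and IV began at 6.35% and 6.83% over Map2k6. In the last Map2k6 segment SOA averaged 40.9% ± 8.28 (SD, n = 4) and IV 49.9% ± 9.48 (n = 3). SO1 was above the other SO pools in 4 of the 5 Crhr1 segments, between 53.0% and 55.0%, and at 25% in the second, so that its high gene-body value did not come from 1 place.

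**Figure D5:**
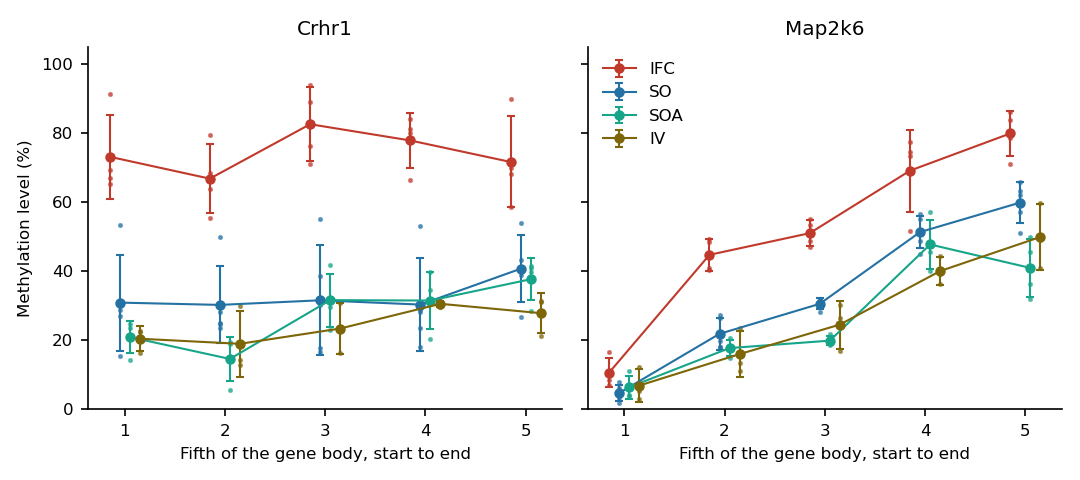
Methylation level (y axis, %) in 5 equal segments of the Crhr1 and Map2k6 gene bodies from start to end (x axis), as mean and SD of each group (large symbols) and single pools (dots). IFC lies above the other groups in every Crhr1 segment, and in Map2k6 the means rise from start to end in all groups, except that SOA falls from 47.7% to 40.9% in the last step.

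The gain was not confined to exons or to repeats. In Crhr1 exons IFC averaged 82.1% ± 13.4 (SD, n = 4) and the mean of the other pools was lower by 42.9 points, and in introns the values were 74.4% ± 7.52 and 46.7 points. In Map2k6 the difference was 20.1 points in exons and 21.6 in introns, where IFC averaged 70.5% ± 5.73 and 49.03% ± 5.03 (SD, n = 4). In Map2k6 exons SO averaged 61.2% ± 19.8 (n = 5) and pools overlapped, with IFC2 at 62.5% on 8 positions and SO1 at 81.8%, above every IFC pool. Within soft-masked repeats it was 43.3 points for Crhr1, on as few as 5 positions in a pool, and 17.7 points for Map2k6. Among the measured gene-body bins, 12 had less than 20% methylation in the other 12 pools, with a median difference of 24.9 points and a range from -1.53 to 47.8. The 17 bins between 20% and 60% had a median difference of 34.8 points and a range from 16.3 to 54.9. All the bins of the first kind with differences under 20 points were in Map2k6, and the 3 Crhr1 bins among them gained 30.2 to 47.8 points.

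Intermediate levels in a pool can come from molecules that differ or from mixed calls along each molecule. Within the Crhr1 gain, calls at positions of the same strand 1 to 50 bp apart, each covered once, were equal in 85.7% of 1028 pairs in IFC, while 62.2% would be equal if calls were independent at the level of their bin. For pairs 500 to 1000 bp apart, 57.2% were equal against 61.5%. In the Map2k6 gain, the near pairs of IFC were equal in 92.8% of 484 pairs against 70.4%, and the distant pairs in 70.4% against 69.3%. Near pairs were also more often equal than independent calls would be in the other groups, at 85.9% in SO, 90.1% in SOA and 90.9% in IV for Crhr1. Positions this close can lie on the same read, which the tables of calls do not show. The expected shares use 1 level for each 5-kb bin, so a change of level within a bin also raises the agreement of near pairs. These shares therefore cannot tell molecules that differ from levels that differ along a bin.

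SO, SOA and IV, whose differences from each other had no part in the choice of the genes, were compared by 2-sided exact permutation tests, 6 in all. For Map2k6, SO was 6.49 points above SOA (SE 1.45), and the groups did not overlap, with SO at 29.0% to 34.7% and SOA at 24.1% to 28.8%. The exact permutation p was 0.0159, the smallest that 5 against 4 pools can give. In the likelihood-ratio test over all gene bodies, the adjusted p was 7.77e-07, but that test takes no account of the spread between pools. With that spread in the model, the adjusted p was 0.254 in the quasi-binomial test and 0.240 with limma, and the difference was under the 20-point limit. With only the positions of at least 3 calls, at most 133 in a pool, the sign turned, to -11.8 points (exact permutation p = 0.571). Map2k6 differed by 6.04 points between SO and IV (SE 2.39, exact permutation p = 0.0714), or 3.66 points without IV3, and by -0.454 points between SOA and IV (SE 2.57, exact permutation p = 0.914). The last value ran from -2.84 points without IV3 to 1.85 without IV1, and with only the positions of at least 3 calls it was 13.99 points and SO minus IV 2.20 points. For Crhr1, SO minus SOA was 3.83 points (SE 5.36, exact permutation p = 0.698) and became -0.651 points without SO1 and -12.8 points with only the positions of at least 3 calls. SOA minus IV was 4.23 points (SE 2.13, exact permutation p = 0.171), or 2.41 points without IV3, and SO minus IV 8.06 points (SE 6.45, exact permutation p = 0.214), which fell to 3.58 points without SO1. With only the positions of at least 3 calls, which left 3 of the SOA pools for Crhr1, SOA minus IV was 12.3 points and SO minus IV -0.487 points. With 4 against 3 pools the test cannot go below 0.0571.

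Of the 94 bins of both windows measured in SO and SOA, 4 passed the likelihood-ratio test and the 20-point limit, while 2.22% of bins did in the genome, and 2 of them were higher in SO, with 1.17% in the genome. For SO against IV the count was 5 of 104, with 2.26% in the genome, and for SOA against IV 1 of 101, with 0.426%. Within Crhr1 this was the bin at chr11:104135001, which was 20.4 points higher in SO than in IV. Within Map2k6, the bin at chr11:110500001 averaged 64.9% in SO, from 58.1% to 72.7%, and 40.8% in SOA, from 18.2% to 58.8% (adjusted p = 0.00156). The bin at chr11:110480001 averaged 49.8% in SO, 46.2% in SOA and 20.2% in IV, with adjusted p = 1.02e-07 for SO against IV and 0.0108 for SOA against IV, and the bin at chr11:110485001 was 24.8 points higher in SO than in IV. In the Map2k6 flank, the bin at chr11:110330001 in the 5′ part of Abca5, a gene for a lipid transporter of the ABC family, was at 58.8% to 84.8% in SO, at 7.14% to 35.7% in SOA and at 11.4% to 17.2% in IV. IFC was at 37.5% to 68.2% in this bin, so that both groups from young females were above both adult groups. SO exceeded SOA there by 43.9 points (adjusted p = 9.71e-08) and IV by 55.1 points (adjusted p = 1.28e-18). In the Crhr1 upstream flank, bins at chr11:104055001 and chr11:104060001 were 22.9 and 23.8 points lower in SO than in SOA, and the former was 23.5 points lower than in IV. No protein-coding GENCODE gene lies in these bins. In the quasi-binomial test, which includes the spread between pools, no bin of the windows had an adjusted p under 0.05. The unadjusted p was under 0.05 for 12 bins between SO and SOA, 3 between SOA and IV and 12 between SO and IV, of 94, 101 and 104 bins, beside 9.26%, 6.35% and 8.4% of bins in the genome. The smallest was 8.49e-05 for the Abca5 bin between SO and IV. Without IV1 no bin was called between SOA and IV, and without SO1 the count between SO and IV was 3.

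The neighbouring genes did not share the gain. Sppl2c, an intramembrane protease gene after Crhr1, averaged 3.27% to 4.28% in IFC, SO and SOA and 8.47% in IV. Mapt, which encodes the microtubule protein tau, averaged 17.7% in IFC and 15.6% to 17.2% in the other groups. Abca5 was methylated over most of its length, at 74.2% ± 9.59 in IFC (SD, n = 4), 75.4% ± 3.41 in SO (n = 5), 68.7% ± 7.47 in SOA (n = 4) and 62.9% ± 2.02 in IV (n = 3). None of the 3 gene bodies passed both the test and the 20-point limit in any of the 6 comparisons.

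Other genes of the CRH pathway were read from a list of 20, of which 18 or 19 were covered well enough in each comparison. No ligand (Crh, Ucn, Ucn2, Ucn3) and no other receptor gene was called. Crhr2, the second CRH receptor, was lowest in SOA, with 3.79%, and highest in IV, with 6.12%, while IFC had 4.37% and SO 4.51%. A single gene was called, Crhbp, which encodes the binding protein that sequesters CRH, and it was higher in both adult groups. Crhbp averaged 10.0% ± 7.95 in IFC (SD, n = 4), 5.46% ± 4.02 in SO (n = 5), 32.4% ± 11.3 in SOA (n = 4) and 28.3% ± 4.64 in IV (n = 3). The highest SO pool was at 8.68% and the lowest SOA pool at 22.2%. SO was 26.9 points below SOA (adjusted p = 1.53e-18) and 22.9 points below IV (adjusted p = 3.71e-21), and IFC was 22.4 points below SOA (adjusted p = 3.48e-08), in the likelihood-ratio test. Between IFC and IV the difference was -18.3 points, under the limit. In the quasi-binomial test no gene of the list had an adjusted p under 0.05, and the unadjusted p was under 0.05 for 0 to 2 genes in each of the 6 comparisons. Over all genes these unadjusted shares were 7.89% between IFC and SO, 13.8% between IFC and SOA, 11.8% between IFC and IV, 10.6% between SO and SOA, 4.99% between SOA and IV and 10.6% between SO and IV. The call of Crhbp between IFC and SOA was lost without IFC4 or SOA3. These comparisons share pools. Over all genes 0.912% were called between IFC and SO, 2.65% between IFC and SOA, 2.44% between IFC and IV, 1.31% between SO and SOA, 0.764% between SOA and IV and 1.08% between SO and IV. The median difference of the list between IFC and SO was 1.11 points, beside 0.617 over all genes, and between SO and SOA -1.88 beside -0.112.

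None of the 28 genes listed for the p38 pathway was called in any of the 6 comparisons. Over all genes 0.764% to 2.65% were called, and at such shares a list of 28 can hold no called gene without differing from the rest. At an adjusted p under 0.05 without the limit, 2 to 8 genes of the list were higher and 2 to 5 lower in the first group of a comparison in the likelihood-ratio test. Over all genes that test alone passed 20.7% between IFC and SO, 30.4% between IFC and SOA, 35.2% between IFC and IV, 25.6% between SO and SOA, 26.4% between SOA and IV and 32.4% between SO and IV. The unadjusted quasi-binomial p was under 0.05 for 1 to 4 of the 28 genes, beside the shares of all genes given above, 4.99% to 13.8%. Map2k6 itself is not in the list, which includes other kinases upstream of p38, p38 itself, its substrates and its phosphatases. It also holds Map2k1, Map2k2, Map2k5 and Map2k7, kinases of the same family that chiefly activate other MAP kinases. The median difference of the list between IFC and SO was 0.0255 points, with a range from -11.1 to 8.15. Map2k3 and Map2k4, the genes for the other kinases that activate p38, were methylated in all groups. Map2k3 was at 78.8% ± 2.60 in IFC (SD, n = 4), 70.7% ± 5.60 in SO (n = 5), 78.8% ± 12.02 in SOA (n = 4) and 75.5% ± 6.35 in IV (n = 3). Map2k4 ranged from 76.4% in SOA through 78.0% in SO and 80.9% in IV to 83.4% in IFC.

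Gene bodies like the members over the 16 pools were taken from 463 with at least 20 positions in every pool and at least 20 points between the highest and lowest group mean. Pygm, the muscle glycogen phosphorylase gene, had a Pearson r of 0.915 with Crhr1 and averaged 90.5% in IFC against 54.0% in SO, 50% in SOA and 42.9% in IV. Slc12a3, a sodium chloride cotransporter gene, had an r of 0.908 with Crhr1 and averaged 42.6% in IFC and 17.8% to 21.3% in the other groups. For Map2k6, Pls3 (plastin 3, r = 0.902) averaged 70.9% in IFC against 58.5% in SO, 46.8% in SOA and 46.1% in IV, and Dapk2 (a death-associated kinase gene, r = 0.891) averaged 57.4%, 48.6%, 38.1% and 36.5%. The pools share their libraries and depth between genes, and these correlations describe the pattern only.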

How the data were processed

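PBAT libraries of 16 oocyte pools were analysed from the deposited call tables. Per the submitters' processing notes and the methods of the study, the authors trimmed reads with Trim Galore 0.4.4 and cutadapt 1.9.1, aligned them to GRCm38 with Bismark 0.19.0 and removed duplicates. The deposited tables give, without normalization by the authors, the counts of methylated and unmethylated calls for each covered CpG position and strand, and the percent of methylated calls.

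The level of a region in a pool was the mean of its position percentages, with at least 5 positions. Gene bodies came from GENCODE M21. Across all gene bodies and 5-kb bins, the calls of 2 groups were compared by logistic regression on group (likelihood-ratio test). P-values were adjusted by Benjamini and Hochberg's method over every region tested, with a threshold of 0.05 and a limit of 20 points on the difference. Single values of the SO, SOA and IV groups were compared by 2-sided exact permutation tests. The labels do not say which animals or cultures each pool came from, so permutation, quasi-binomial and limma p-values measure only the spread between pools, whereas the likelihood-ratio test takes no account of that spread. A bin was in the gain when IFC exceeded the mean of the other 12 pools by 20 points, and the gain was the longest run touching the gene with gaps of 1 bin.

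The members and lists were chosen with earlier results of these data known. Named genes were the members, protein-coding genes overlapping the flanks, called genes of the CRH and p38 lists with Crhr2, Map2k3 and Map2k4, and the 3 gene bodies with the highest r for each member, of which 1 gene, highest in r for Crhr1 and also among the 3 for Map2k6, is not reported here. Alternatives were pooled calls, stricter coverage, depth classes, thinning, unmasked positions, other tests, limits, bins and references, a replicate block, and each pool left out. Tests and the border rule were checked on simulated data. The programs were scipy 1.17.1 and numpy 2.4.6 in Python 3.11.15, and limma 3.58.1 in R 4.3.3.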

Additional observations from a re-analysis of the deposited data

How the results depend on the processing

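For 36 results, which included counts and borders as well as differences, 567 values were recomputed. Of these, 439 were classed as unchanged. For counts, borders and the differences of IFC from other pools, unchanged meant close to the value given above. For the differences among SO, SOA and IV it meant the same sign and a permutation p on the same side of 0.05, whatever the size. A further 3 kept the direction and lost the call, 115 moved and 10 changed sign. The cause was not tested. The Crhr1 gain over SO was 35.4 points among libraries under 10000000 calls. Positions of at least 3 calls numbered at most 76 in a pool for Crhr1 and 133 for Map2k6, and were few in the IFC pools. With these positions the Crhr1 gain over SOA was 35.2 points. The Map2k6 gain was 35.3 over the 12 others, 38.7 over SO and 40.9 over IV. With those positions SO minus SOA was -12.8 points for Crhr1 and -11.8 for Map2k6, SO minus IV was -0.487 for Crhr1, and SOA minus IV was 13.99 for Map2k6. Crhr1 SO minus SOA was -0.438 among libraries over 10000000 calls, and Map2k6 SOA minus IV was 0.105 with pooled calls and 0.188 after thinning. Map2k6 SO minus SOA was 7.26 points among the shallower and 6.83 among the deeper libraries, in designs too small to reach 0.05.

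No pairing by replicate number was seen, since none of 21 same-numbered pairs had a correlation of deviations over 0.1, with a range from -0.0870 to 0.0851. Differently numbered pairs were not compared, so a weak pairing could have been missed. With the replicate block, Map2k6 SO minus SOA was 5.95 points (exact sign-flip permutation p = 0.125, which 4 pairs cannot better), and limma with the block called 0 genes in all 6 comparisons.

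In the order IFC against SO, SOA and IV, SO against SOA, SOA against IV and SO against IV, the genes called were 1141, 1892, 2272, 1256, 939 and 1360 with a limit of 10 points and 3855, 5590, 6709, 4711, 4931 and 6173 without a limit. They were 1, 72, 16, 16, 0 and 1 in the quasi-binomial test, 10, 136, 100, 46, 0 and 35 with limma, and 82, 258, 297, 119, 66 and 120 with at least 20 positions in every sample. Genes of the pathway lists numbered 7, 14, 15, 10, 15 and 19 without a limit. With a limit of 10 points they numbered 2 for IFC against SO and against SOA, 3 for IFC against IV and for SO against IV, and 1 for SOA against IV. None was called in the quasi-binomial test, and with limma none between IFC and SOA or SO and SOA.

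Of the bins of both windows, 11 were 30 points higher in IFC than in SO. Between SO and SOA 7 were called with bins shifted by 2500 bp, 10 with a limit of 10 points, 12 without a limit and 0 in the quasi-binomial test. Between SO and IV the last 3 counts were 9, 12 and 0. Between SOA and IV the count was 0 with shifted bins, 2 without a limit and 0 in the quasi-binomial test.

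The Crhr1 gain began 12.1 kb after the gene start with a limit of 30 points or no gap, 35.1 kb with bins of 2 kb and 17.1 kb with at least 10 positions. The Map2k6 gain began at 25.9 kb with a limit of 10 points or no gap, 95.9 with a limit of 30 points or SO alone as reference, 32.9 with bins of 2 kb, 80.9 with at least 10 positions and 21.9 in the fit of 2 borders. Its end relative to the gene end was -38.0 kb with shifted bins, -91.5 with bins of 2 kb, -25.5 with at least 10 positions and -80.5 with no gap.

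With each sample left out in turn, Crhr1 SO minus SOA ran from -0.651 (without SO1) to 6.18 points and Map2k6 SOA minus IV from -2.84 to 1.85, positive without SOA1 or IV1. Genes called ran from 186 to 271 for IFC against SO (the latter without IFC4), 243 to 447 for SO against SOA and 126 to 421 for SOA against IV (the highest of both without SOA4). Pathway genes ran from 0 to 3 for IFC against SOA, and from 0 to 1 for IFC against IV and for SOA against IV. Bins called ran from 0 to 2 for SOA against IV and 3 to 7 for SO against IV. The Crhr1 gain began at -2.85 to 12.1 kb and the Map2k6 gain at 55.9 to 95.9 kb from the gene start.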
